A study of Mus musculus with 16 samples.

Results

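The comparison described here set mouse aortic smooth muscle cells labelled Hey2 knockout against wild-type cells after 120, 180 and 240 min with platelet-derived growth factor BB (PDGF-BB). It used 6 of the 16 arrays of the series, 3 per genotype, chosen by genotype and time in their titles and by no measured value. Both genotypes shared a mixed C57BL/6 and 129SvJ background, passages 10 to 20, culture on fibronectin after digestion of aortas freed of adventitia, growth to 95% confluency, and 48 h in 0.4% FCS before PDGF-BB was given at 5 ng/ml. The arrays of both genotypes at 0, 15 and 30 min served as the earlier window, and those at 60 and 480 min were left out of both comparisons because earlier work on these arrays found the wild-type pair apart from the order of the other times. The labels name no animals, isolates, sex or age, so the 3 arrays of a genotype stand for 3 times, and whether they came from separate cultures is not given. The p-values thus rest on how much the genotype difference varied from time to time, a spread that may be technical. Genotype and isolate cannot be told apart in this design, nor can PDGF-BB and time in culture, since every later array was stimulated.

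Hey2 is a basic helix-loop-helix transcriptional repressor of the Notch pathway that is present in arterial smooth muscle. PDGF-BB binds receptor tyrosine kinases on smooth muscle cells and signals through MAP kinases to division and migration. Its first transcriptional answer is a wave of immediate-early genes, many driven by serum response factor (SRF) and its partners. The same factor, with myocardin-type partners, also drives the contractile genes, which smooth muscle cells reduce when they start to divide. The question named by the study's design text was which transcripts would account for a different response of the knockout cells to PDGF.

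RNA was measured on an Affymetrix mouse array as a signal intensity per probe set. The deposited arrays differed in brightness: the 2% trimmed mean was 230.0, 250.3 and 342.5 in the knockout and 274.6, 191.3 and 163.5 in the wild type at 120, 180 and 240 min, so they were quantile normalized before any comparison. The ratio of the 3' to the 5' Gapdh control probe set, a measure of RNA integrity, was 2.56, 4.64 and 2.44 in the knockout and 2.59, 3.21 and 2.99 in the wild type, and its part in the results was not tested. Differences are given as knockout minus wild type on the scale log2(signal + 4.6), which understates the change of dim genes. With 1 array per genotype and time, precision is limited by the number of arrays. In cultures measured as a whole, fewer cells of a type and less RNA per cell cannot be told apart.

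The targeted gene was not lower in the knockout at these times. Hey2, on chromosome 10 and with a single probe set, had a normalized signal of 23.3, 34.8 and 41.04 in the knockout and 14.04, 19.3 and 16.6 in the wild type at 120, 180 and 240 min. All 3 knockout values were above all 3 wild-type values, and both genotypes were close to the signal of 16 used as the filter. The difference was 0.80 (SE 0.31, limma adjusted p = 0.0726), which did not pass the test. At 0, 15 and 30 min the order was the opposite, with 34.3, 63.3 and 42.2 in the knockout and 101, 102 and 113 in the wild type, and the groups again did not overlap after normalization. As deposited, the wild-type 30 min array read 43.2, inside the knockout range of 38.1 to 57.1. The genotype difference thus changed between the windows by 1.94 (SE 0.34, limma adjusted p = 0.00664), from -1.14 to 0.80, with a wild-type mean -2.38 and a knockout mean -0.43 away from its own earlier level. That call was lost with the scaling as deposited, without the intensity trend, with the 60 and 480 min arrays added, and without the 15 and 180 or the 30 and 240 min arrays. Whether the probe set lies inside the deletion is not stated, so these values do not check the genotype labels.

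Of 12891 genes tested at 120 to 240 min, 4807 (37.3%) differed between the genotypes by limma at an adjusted p of 0.05, with 2473 (19.2%) higher and 2334 (18.1%) lower in the knockout. Of these, 1136 (8.81%) differed at least 2-fold, 735 (5.7%) upward and 401 (3.11%) downward, and 4788 of the 4807 kept their sign in all 3 time-matched pairs. The arrays of the genotypes did not overlap for 5026 genes (39%). Under the deposited scaling 805 genes were called, of which 88.7% were higher against 51.4% above, and the median of all genes was 0.38 instead of -0.02. Without the 180 min pair 2775 were called. The shares of 19.2% higher and 18.1% lower are the background for the counts of list members given below.

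Some genes were bright in 1 genotype and close to the filter signal in the other. Stk26, a kinase of the germinal centre kinase family, had a signal of 2126, 2159 and 2189.7 in the knockout and 40.1, 25.5 and 22.98 in the wild type, a difference of 6.02 (SE 0.15, limma adjusted p = 2.48e-08). Car9, a carbonic anhydrase known from hypoxic and mesothelial cells, had 739.97, 766 and 652 in the knockout and 12.2, 21.6 and 41.2 in the wild type, a difference of 4.73 (SE 0.26, limma adjusted p = 1.82e-06). Neither gene had overlapping groups, and the wild-type values lay near the filter signal. Moxd1, a monooxygenase of the dopamine beta-hydroxylase family (4.57, SE 0.12), Mapk13, a p38-type kinase (4.43, SE 0.43), Pir, an iron-binding nuclear protein (4.26, SE 0.13), and Cntn2, a neural adhesion molecule (4.15, SE 0.16), followed. For Car9 and Mapk13 the 120 min wild-type array was under the filter, at 12.2 and 3.09, and the paired differences of Mapk13 were 6.05, 4.16 and 3.07, so the size and place of these differences rest on a value not above it. In the other direction, Dkk3, a secreted protein of the Dickkopf family, had 26.7, 40.3 and 33.9 in the knockout and 1131, 903 and 653 in the wild type, a difference of -4.54 (SE 0.20, limma adjusted p = 4.48e-07). Pam, which amidates peptide hormones, had 129, 80.8 and 112 in the knockout and 2559.7, 2213 and 2369 in the wild type, a difference of -4.44 (SE 0.11, limma adjusted p = 2.48e-08). Both genes were bright on all wild-type arrays and dim on all knockout arrays. Col2a1, the fibrillar collagen of cartilage (-4.45, SE 0.17), Thsd7a (-4.21, SE 0.14), Grb10, an adaptor that restrains insulin and growth factor receptors (-3.79, SE 0.09), Ctsc, a lysosomal protease (-3.23, SE 0.17), and Mansc1 (-3.06, SE 0.22) were also lower.

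For a further group of genes the mean of either genotype lay at or under the filter signal, so the offset sets the size of their differences and they cannot be ranked. Higher in the knockout were Mpzl2, an epithelial adhesion molecule (5.94), Celsr1, a cadherin of planar cell polarity (5.06), Ripk4, a kinase of epidermal differentiation (4.30), and Gucy1a1, a subunit of the nitric oxide receptor guanylate cyclase (4.28). Lower were Aldh1a3, which makes retinoic acid (-4.27), Eya4, a transcriptional coactivator (-3.93), Chl1, a neural adhesion molecule (-3.83), Pdlim4, an actin-associated LIM protein (-3.36), Ager, the receptor for glycated proteins (-3.25), and Gldc, of glycine cleavage (-2.93). Their limma adjusted p-values ran from 1.98e-06 to 0.000266. All but Aldh1a3, which had 16.8 in the knockout at 120 min, passed the filter only through the genotype in which they were brighter. Their lack of overlap was thus fixed by the filter, and these p-values are no separate support.

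Contractile genes were low in the stimulated knockout cells. Of 21 measured members of the contractile list 15 were lower and 1 was higher in the knockout, with a median difference of -0.96 against -0.02 for all genes. Acta2, smooth muscle alpha actin, had a signal of 6054, 6257 and 6205 in the knockout and 9490.2, 9256 and 9638 in the wild type, a difference of -0.62 (SE 0.05, limma adjusted p = 1.04e-05). Cnn1, calponin, had 46.2, 43.5 and 33.99 in the knockout and 271, 256 and 229 in the wild type, a difference of -2.49 (SE 0.15, limma adjusted p = 3.15e-06). These are the proteins by which the cultures had been checked for purity: Acta2 was bright on all 6 arrays, whereas calponin RNA was dim in the knockout, and the groups did not overlap for either. Myl9, the regulatory myosin light chain, had 199.5, 214 and 211 in the knockout and 1561, 1585 and 1572 in the wild type, a difference of -2.89 (SE 0.09, limma adjusted p = 9.70e-08). Actg2, the gamma actin of visceral smooth muscle, had 41.6, 41.7 and 48.99 in the knockout and 490.2, 495 and 597 in the wild type, a difference of -3.45 (SE 0.13, limma adjusted p = 2.36e-07). The groups did not overlap for these either, and the 3 pairs of arrays gave nearly equal differences. Tagln, the actin-binding protein transgelin, (-1.48, SE 0.08) and Acta1, the skeletal muscle actin (-3.25, SE 0.17), were lower as well. Myh11, the smooth muscle myosin heavy chain, was dim throughout, with 3.89, 7.24 and 5.07 in the knockout and 24.8, 25.6 and 39.01 in the wild type and a difference of -1.77 (SE 0.42, limma adjusted p = 0.00908). Myh11 passed the filter only through its wild-type arrays, so its lack of overlap was fixed by the filter. The member that was higher, named after its values were seen, was Itga8, an integrin of smooth muscle and mesenchyme (1.63, SE 0.18). Under the deposited scaling the median of the list was -0.57, with 6 members lower and 1 higher. The difference was not particular to the later window. Among the 22 members tested for a change between windows, the median was -0.58 at 0 to 30 min and -0.93 at 120 to 240 min. Acta2, Cnn1, Myl9 and Actg2 differed by -0.68, -2.56, -2.69 and -3.34 at 0 to 30 min, values not tested on their own.

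**Figure D1:**
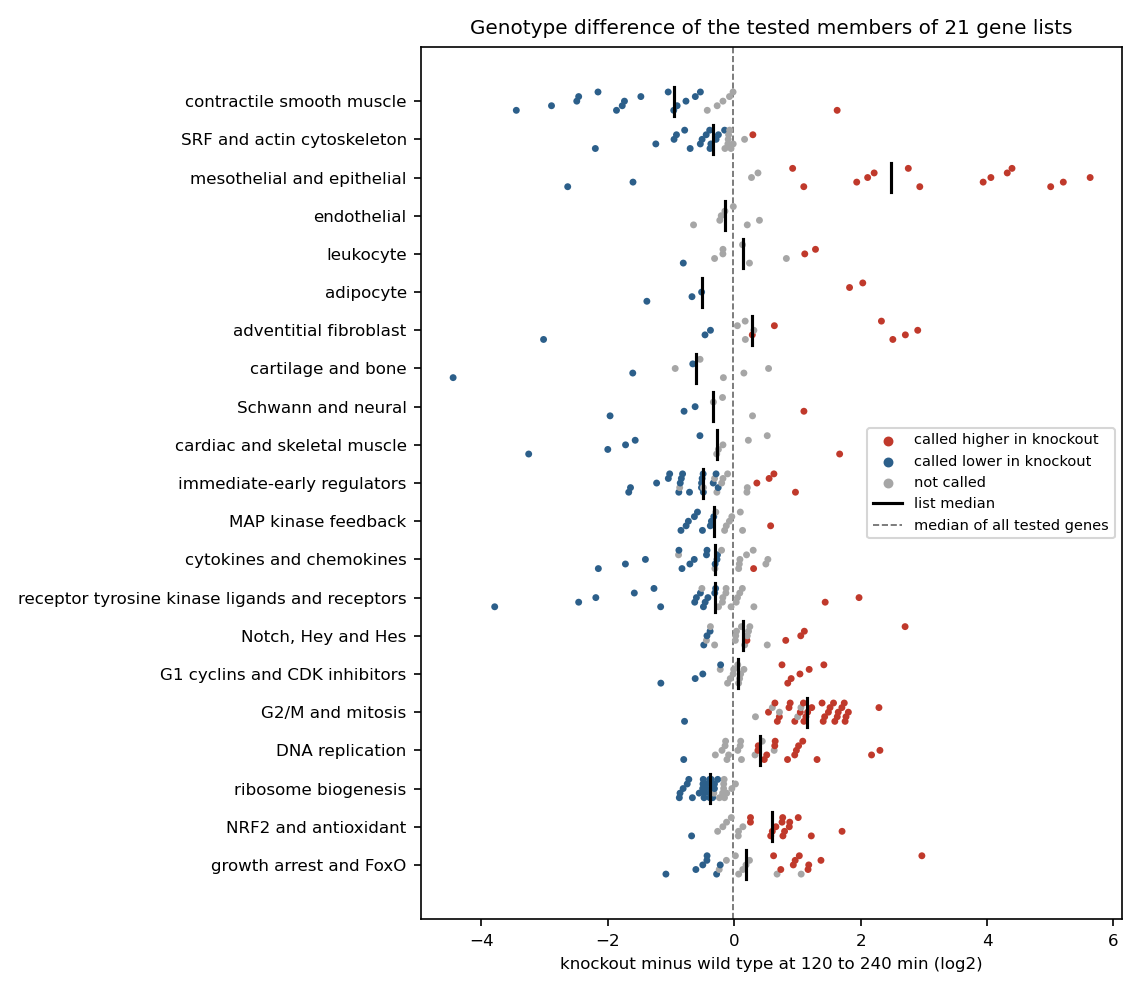
Each point is the knockout minus wild-type difference (log2, horizontal axis) of a tested gene at 120 to 240 min, in rows by gene list; red points were called higher in the knockout, blue lower, grey not called, black bars are list medians and the dashed line is the median of all genes. The contractile row lies mostly left of the line and the mesothelial and G2/M rows mostly right of it, with medians of -0.96, 2.48 and 1.15.

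The wider list of SRF cofactors and actin cytoskeleton genes moved the same way by smaller amounts. Of 24 measured members 15 were lower and 1 higher, against 18.1% and 19.2% of all genes. The median was -0.33, which turned to 0.05 with the scaling as deposited, where all genes stood at 0.38. Under that scaling 1 member was called lower and 0 higher. Fblim1, a focal adhesion protein that binds filamin, had 159.6, 169.6 and 147 in the knockout and 883, 769 and 607 in the wild type, a difference of -2.20 (SE 0.12, limma adjusted p = 1.84e-06). Tgfb1i1, the paxillin relative Hic-5, had 1159.7, 1063 and 1418 in the knockout and 2928, 2766 and 2868 in the wild type, a difference of -1.24 (SE 0.09, limma adjusted p = 7.69e-06). All knockout values of both genes were below all wild-type values. Pfn1, the actin monomer-binding profilin, was also lower (-0.78, SE 0.06). Srf itself (-0.70, SE 0.08) and its coactivators Mrtfa (-0.91, SE 0.10) and Mrtfb (-0.51, SE 0.12), named after their values were seen, were also lower, while the general actins Actb and Actg1 differed by -0.09 and -0.10 and did not pass the test, both turning to higher under the deposited scaling.

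SRF is a known regulator of both lists, so RefSeq promoter windows (GRCm38.p6, from 250 bases before to 50 after the start of a transcript) were searched for the CArG box, the SRF-binding motif, which reads the same on both strands. Only its strict form was sought, which is CC, then a core of A or T letters alone, then GG. This form was present in 1.63% of 32851 windows and in 1.33% of those of tested genes. In the contractile list 3 of 23 windows held it, from 2 of 18 genes, in the SRF and actin list 9 of 30, from 8 of 22 genes, and among immediate-early regulators 5 of 32, from 2 of 23 genes. A match is a description of the letters, not a shown binding site. The windows of Acta2 and Cnn1 held no strict match, and Tagln had no entry. Boxes with a G or C in the core, or outside the window, could not be found. A gene without a match may thus still have an SRF site. Of the 8 genes with the motif in the SRF and actin list 5 were lower in the knockout, 1 was higher and 2 did not pass, while the whole list held 15, 1 and 8. The higher gene, named after its values were seen, was Fhl1, a LIM protein of muscle (0.29), and Actg1 was among those that did not pass. Windows of 4 genes described here are printed 5' to 3' on the strand of the gene with the CArG box in capitals. They were picked from genes that were lower, to show the motif beside a contractile gene, a muscle actin, an SRF cofactor and an immediate-early factor, and so do not bear on whether it goes with lower levels. They lie at chr2:156775214-156775513 (Myl9, plus strand), chr8:123894726-123895025 (Acta1, minus strand), chr1:43163912-43164211 (Fhl2, minus strand) and chr10:67537316-67537615 (Egr2, plus strand), each covering upstream sequence and the first bases of the transcript.
Myl9: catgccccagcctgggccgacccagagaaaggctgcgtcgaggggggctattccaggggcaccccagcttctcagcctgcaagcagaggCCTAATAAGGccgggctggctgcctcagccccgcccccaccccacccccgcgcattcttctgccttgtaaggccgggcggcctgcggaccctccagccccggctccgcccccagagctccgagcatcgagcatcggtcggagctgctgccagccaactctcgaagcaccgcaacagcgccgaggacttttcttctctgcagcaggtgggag
Acta1: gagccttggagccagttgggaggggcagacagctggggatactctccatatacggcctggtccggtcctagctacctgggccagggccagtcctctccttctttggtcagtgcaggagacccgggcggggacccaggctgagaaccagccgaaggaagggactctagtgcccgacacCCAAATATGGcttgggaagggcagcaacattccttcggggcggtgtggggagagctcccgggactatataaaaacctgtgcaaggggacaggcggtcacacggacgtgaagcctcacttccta
Fhl2: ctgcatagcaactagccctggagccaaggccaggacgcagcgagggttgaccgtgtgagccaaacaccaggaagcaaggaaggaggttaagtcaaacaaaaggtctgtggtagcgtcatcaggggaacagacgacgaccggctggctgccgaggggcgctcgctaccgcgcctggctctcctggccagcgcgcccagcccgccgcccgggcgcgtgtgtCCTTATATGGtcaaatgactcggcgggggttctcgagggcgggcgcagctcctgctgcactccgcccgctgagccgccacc
Egr2: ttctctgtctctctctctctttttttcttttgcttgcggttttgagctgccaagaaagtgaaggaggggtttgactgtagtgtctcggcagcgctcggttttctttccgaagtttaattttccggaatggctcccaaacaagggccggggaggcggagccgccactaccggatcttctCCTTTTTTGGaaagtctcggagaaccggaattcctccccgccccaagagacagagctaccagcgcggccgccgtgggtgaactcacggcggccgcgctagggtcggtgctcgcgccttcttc

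Genes of mesothelium and simple epithelia were high in the knockout. Of 18 measured members of that list 14 passed as higher and 2 as lower, and the median was 2.48. This was not particular to the later window. Among the 19 members tested for a change between windows, the median was 2.73 at 0 to 30 min and 2.21 at 120 to 240 min. Msln, Upk3b and Upk1b differed by 2.97, 4.31 and 5.31 at 0 to 30 min, values not tested on their own. Msln, the mesothelial surface protein mesothelin, had 3041, 3233 and 3248 in the knockout and 359.98, 422 and 455 in the wild type, a difference of 2.94 (SE 0.08, limma adjusted p = 3.98e-08). Upk3b, a uroplakin of mesothelium and urothelium, had 2910.4, 2773 and 2793 in the knockout and 171, 134 and 113 in the wild type, a difference of 4.32 (SE 0.11, limma adjusted p = 2.48e-08). Upk1b, a uroplakin of the tetraspanin family, had 3849, 4047 and 3707 in the knockout and 111, 123 and 113 in the wild type, a difference of 5.01 (SE 0.09, limma adjusted p = 5.17e-09). Each knockout array was far above each wild-type array for these 3 genes. Muc16, the mucin CA125 (4.39, SE 0.15), Lrrn4, a leucine-rich membrane protein of mesothelium (4.06, SE 0.11), and the basal keratin Krt14 (3.94, SE 0.18) were higher as well, and so were Rspo1, an activator of Wnt signalling (5.63), and Lsr, of tricellular junctions (5.21); the wild-type means of both lay under the filter. The 2 members that were lower, named after their values were seen, were the keratin Krt18 (-2.63, SE 0.15) and the tight junction protein Cldn1 (-1.60, SE 0.31). Krt8, the usual partner of Krt18, did not pass the test (0.38, SE 0.16), and neither did the keratin Krt5 (0.27, SE 0.26). The summed signal of the 18 members was 23280 to 24815 on the knockout and 3893 to 4241 on the wild-type arrays, that of the 21 contractile genes 25540 to 25775 and 40880 to 41102. The part of a mixture of cell types in the contractile difference was not tested.

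Markers of other cells that an aortic culture could hold were measured beside these. Their counts stand against 19.2% of all genes called higher and 18.1% called lower. Of the endothelial list 7 of 15 genes were measured and 0 were called by limma, 0 also at an unadjusted p under 0.05, with a summed signal of 202 to 249 in the knockout and 207 to 265 in the wild type; Pecam1, Cdh5 and Vwf were not above the filter. Of 9 measured leukocyte genes 2 were higher, 1 was lower and 6 did not pass, so that 33.3% were called against 37.3% of all genes. Csf1r, the receptor for macrophage colony-stimulating factor, had 286, 655 and 747 in the knockout and 125, 319 and 333 in the wild type. Its difference was 1.12 (SE 0.11, limma adjusted p = 5.41e-05), higher in every matched pair though the groups overlapped. At 0 min Csf1r had only 55.4 in the knockout and 34.3 in the wild type. Lcp1, a leukocyte plastin, differed by 1.29, SE 0.19, whereas Lyz2, a lysozyme of myeloid cells, was lower (-0.81, SE 0.28). The common leukocyte antigen gene Ptprc was not above the filter. In the fibroblast list 6 of 13 genes were higher and 3 lower, with Col3a1, a fibrillar collagen, at 1288, 1181 and 987 in the knockout and 243, 252 and 185 in the wild type (2.33, SE 0.10), Thy1, a surface antigen of fibroblasts, at 2.90 and the small proteoglycan Lum at -3.02. The adipocyte list, at 5 measured genes, split into 2 higher and 3 lower around a median of -0.52. Lpl, lipoprotein lipase, which binds to vessel walls and is made by fat and muscle, had 5819, 5722 and 5063 in the knockout and 1781, 1450.4 and 943 in the wild type, a difference of 2.03 (SE 0.11, limma adjusted p = 2.01e-06). Fabp4, a fatty acid carrier, was also higher (1.82, SE 0.28), whereas the fat cell transcription factors Pparg (-0.67, SE 0.13) and Cebpa (-0.52, SE 0.12) and, named after its values were seen, the glucose transporter Slc2a4 (-1.38, SE 0.47) were lower. In the cartilage and bone list 3 of 8 genes were lower and 0 higher, so that 37.5% were called against 37.3% of all genes. Sox9, the cartilage transcription factor, had 457, 362 and 199.8 in the knockout and 1234, 950.5 and 818 in the wild type, a difference of -1.61 (SE 0.13, limma adjusted p = 2.26e-05). Among 7 measured Schwann and neural genes 3 were lower, 1 was higher and 3 did not pass. Nes, the filament protein nestin, had 371, 380.4 and 432 in the knockout and 1054, 1734 and 2032 in the wild type, a difference of -1.96 (SE 0.14, limma adjusted p = 8.35e-06), while the neuregulin receptor Erbb3 was higher (1.10, SE 0.20). Lpl was thus higher on every knockout array, and Sox9 and Nes lower, without overlap. Of 11 measured cardiac and skeletal muscle genes 5 were lower, 1 was higher and 5 did not pass. Myh7, a slow myosin heavy chain, had 21.3, 14.8 and 27.2 in the knockout and 102, 99.1 and 88.2 in the wild type, and Nppb, the natriuretic peptide B gene of stretched heart muscle, differed by -1.57, SE 0.14. Myl7, an atrial myosin light chain, was the higher gene (1.67, SE 0.30).

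Within the Notch pathway the direction depended on the member. Hey1, the closest relative of Hey2 and a repressor of the same kind, had a signal of 71.7, 59.2 and 35.1 in the knockout and 7.99, 2.68 and 3.03 in the wild type, a difference of 2.70 (SE 0.37, limma adjusted p = 0.000438), and all wild-type values were under the filter. Jag2, a Notch ligand, had 129.7, 197 and 147 in the knockout and 82.8, 65.1 and 62.5 in the wild type, a difference of 1.11 (SE 0.19, limma adjusted p = 0.00171). Nrarp, a Notch target that feeds back on the receptor, had 76.5, 128 and 92.7 in the knockout and 29.2, 58.2 and 50.6 in the wild type, a difference of 1.05 (SE 0.19, limma adjusted p = 0.00207). Jag2 and Nrarp were higher on each knockout array than on any wild-type array. Hey1 passed the filter only through its knockout arrays, so its lack of overlap was fixed by the filter. Rbpj, the DNA-binding partner of the Notch receptor, was lower (-0.48, SE 0.08), and the related repressors Heyl (0.23, SE 0.55) and Hes1 (-0.31, SE 0.15) did not pass the test. In all, 5 of 20 members were higher and 3 lower, close to the share among all genes.

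The transcription factors of the early response were mostly lower in the knockout at these later times. Of 31 immediate-early regulators 18 were lower and 4 higher, with a median of -0.49; with the scaling as deposited the median was -0.11, against 0.38 for all genes, and 0 were called. Myc, which drives growth and ribosome genes, had 1321, 1428 and 1893 in the knockout and 2634, 3307 and 3445 in the wild type, a difference of -1.02 (SE 0.08, limma adjusted p = 1.58e-05). Egr3, a zinc finger factor, had 2091, 830.3 and 913 in the knockout and 4012, 1589.7 and 2186 in the wild type, a difference of -1.04 (SE 0.09, limma adjusted p = 2.19e-05). Egr1, its relative, had 4713, 5033 and 7087 in the knockout and 7315, 7964 and 8459 in the wild type, a difference of -0.52 (SE 0.08, limma adjusted p = 0.000683). The knockout was lower in every matched pair for all 3 genes, and the groups overlapped for Egr3 alone, whose 120 min arrays were the brightest in both genotypes. Fos went the other way: it had 1586, 2403 and 2453 in the knockout and 1301, 1179 and 808 in the wild type, a difference of 0.97 (SE 0.19, limma adjusted p = 0.00333), the groups did not overlap, and the pairwise difference was 0.28, 1.02 and 1.60 at 120, 180 and 240 min. Jun, Nr4a3 and Klf4, named after their values were seen, were higher too (0.55, 0.63 and 0.36), and Junb and Arc were among the lowest (-1.23 and -1.64). With each time-matched pair left out in turn, 16 to 21 members were lower.

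Regulators that restrain MAP kinase signalling followed the same direction. Of 17 measured members 9 were lower and 1 higher, with a median of -0.32 and, with the scaling as deposited, 0.03 where all genes stood at 0.38; relative to all genes it was -0.31 and -0.35, and 0 members were called under that scaling. Dusp5, a nuclear phosphatase of ERK, had 1500.4, 879 and 969 in the knockout and 3029.8, 1499.8 and 1377 in the wild type, a difference of -0.76 (SE 0.10, limma adjusted p = 0.000361). It was lower in every matched pair, though the 120 min knockout array lay within the wild-type range. Dusp4 (-0.50, SE 0.06) and Dusp10 (-0.84, SE 0.11), phosphatases of the same family, and Errfi1, an inhibitor of the EGF receptor (-0.38, SE 0.06), were also lower, while Spry4, an inhibitor of receptor tyrosine kinase signalling, was higher (0.58, SE 0.10). Of 28 receptor tyrosine kinase ligands and receptors 14 were lower and 2 higher, against 18.1% and 19.2% of all genes. Under the deposited scaling 3 were lower and 2 higher, with a median of 0.12 against 0.38 for all genes. Vegfc, a growth factor of lymphatic endothelium, had 30.8, 70.8 and 90.9 in the knockout and 158, 364 and 705 in the wild type, a difference of -2.46 (SE 0.17, limma adjusted p = 6.49e-06). Igf2, an insulin-like growth factor, had 118, 94.4 and 115 in the knockout and 597, 548 and 409 in the wild type, a difference of -2.19 (SE 0.15, limma adjusted p = 6.93e-06). Fgf18, a fibroblast growth factor, was higher, with 577, 641 and 522 in the knockout and 201, 151 and 96.8 in the wild type, a difference of 1.97 (SE 0.16, limma adjusted p = 2.18e-05). None of these 3 genes had overlapping groups. The receptors for PDGF itself did not pass the test, Pdgfrb at 0.13, SE 0.07 and Pdgfra at 0.31, SE 0.24, and neither did Hbegf, a ligand of the EGF receptor (-0.19, SE 0.08). Rac1, which drives lamellipodia, was lower, at -0.32 (SE 0.05, limma adjusted p = 0.00138), and its difference was 0.04 with the scaling as deposited.

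Among cytokines and chemokines 12 of 23 were lower and 1 higher, against 18.1% and 19.2% of all genes. The median was -0.30, or 0.08 against 0.38 for all genes with the scaling as deposited, where 1 was lower and 0 higher. Il1r1, the interleukin-1 receptor, had 336, 344 and 375 in the knockout and 1139, 1698 and 2023 in the wild type, a difference of -2.15 (SE 0.13, limma adjusted p = 3.15e-06). Ccl7, a monocyte chemokine, had 167, 173 and 133 in the knockout and 425, 545 and 633 in the wild type, a difference of -1.72 (SE 0.16, limma adjusted p = 5.10e-05). Cxcl12, a chemokine for progenitor cells, differed by -0.70, SE 0.05. Il1r1 and Ccl7 were lower on every knockout array than on any wild-type array. Of 19 vasoactive receptors and G-protein regulators 3 were higher and 4 lower, near the shares of all genes. Rgs2, which shortens signalling by Gq-coupled receptors, had 50.8, 41.8 and 53.3 in the knockout and 222, 448 and 426 in the wild type, a difference of -2.74 (SE 0.22, limma adjusted p = 1.80e-05). Of 15 ion channel genes 5 were higher and 7 lower, and under the deposited scaling 2 and 0. Kcnn4, a calcium-activated potassium channel of dividing smooth muscle, had 149.9, 525 and 623 in the knockout and 13.6, 87.7 and 105 in the wild type, a difference of 2.71 (SE 0.16, limma adjusted p = 2.82e-06). Cacna1c, the L-type calcium channel of contractile cells, was lower (-1.34, SE 0.15).

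**Figure D2:**
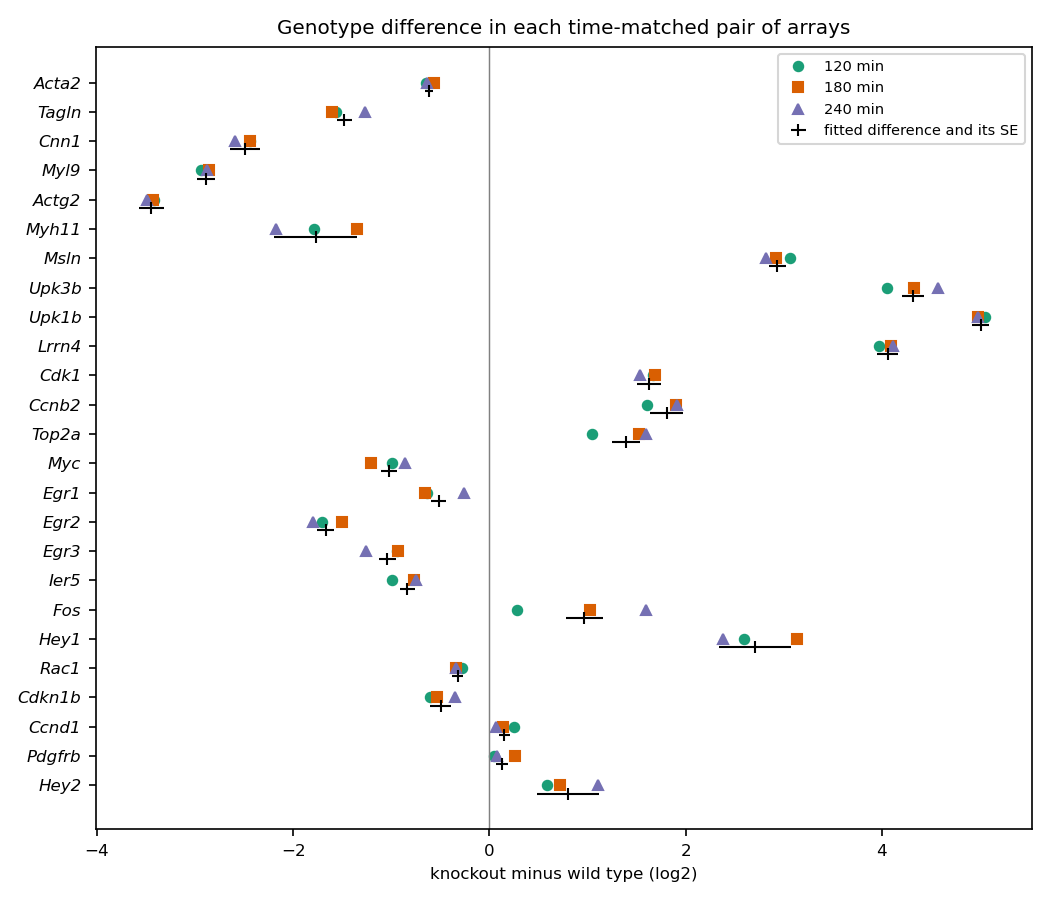
Markers show the knockout minus wild-type difference (log2, horizontal axis) of 25 genes in each time-matched pair of arrays, at 120, 180 and 240 min, and the black cross under them the fitted difference with its SE. The contractile genes lie left of 0 and the mesothelial and mitotic genes right of it in all 3 pairs; Fos spreads from 0.28 to 1.60, and Ccnd1 and Pdgfrb lie near 0.

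Genes of cell division were high in the knockout. Among 34 measured G2 and mitosis genes, 28 passed as higher and 1 as lower, and their median difference was 1.15, and of 28 replication genes 14 passed as higher and 1 as lower, at a median of 0.41, against 19.2% of all genes higher and 18.1% lower. Under the deposited scaling 19 and 4 of them were higher and 0 lower. Cdk1, the kinase that starts mitosis, had 484, 302 and 309 in the knockout and 149.6, 90.3 and 104 in the wild type, a difference of 1.63 (SE 0.12, limma adjusted p = 1.20e-05). Top2a, which untangles replicated DNA, had 461, 352 and 324 in the knockout and 221, 119 and 104 in the wild type, a difference of 1.39 (SE 0.14, limma adjusted p = 7.78e-05). Rrm2, which supplies deoxynucleotides, had 575, 515 and 479 in the knockout and 153, 89.7 and 102 in the wild type, a difference of 2.17 (SE 0.14, limma adjusted p = 4.41e-06). All knockout values exceeded all wild-type values, and 0 genes of either list were called for a change of the difference since 0 to 30 min. Ccnb2, a mitotic cyclin, and Anln, of the cleavage furrow, differed by 1.81 and 1.09. The member that was lower, named after its values were seen, was Foxm1, a transcription factor of mitotic genes (-0.79, SE 0.21), and among replication genes Mcm6, a subunit of the replicative helicase (-0.80, SE 0.08). The G1 regulators were divided, with E2f1 (1.19, SE 0.16) and the inhibitor Cdkn2d (1.42, SE 0.16) higher, the inhibitors Cdkn2a (-1.16, SE 0.17) and Cdkn1b (-0.50, SE 0.11) lower, and Ccnd1, the D-type cyclin (0.15, SE 0.06), and Cdkn1a, the p21 inhibitor (-0.02, SE 0.06), not past the test.

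Ribosome biogenesis genes, many of them targets of Myc, were lower in 24 of 34 cases and higher in 0, with a median of -0.38 that became -0.0019 against 0.38 for all genes with the scaling as deposited, where 0 were called. Wdr12, which matures the large subunit RNA, had 243, 391 and 487 in the knockout and 469, 675 and 904 in the wild type, a difference of -0.87 (SE 0.10, limma adjusted p = 0.00016). Heatr1, of the small subunit processome, had 688, 949.7 and 1019.6 in the knockout and 1032, 1644 and 1759 in the wild type, a difference of -0.72 (SE 0.08, limma adjusted p = 0.000185). Both genes were higher at 240 than at 120 min in both genotypes, with the knockout below the wild type at every time and an overlap of the groups for Wdr12. Without the 180 min pair 13 of these genes were called lower. Antioxidant genes, many of them targets of NRF2, were higher in 14 of 22 cases and lower in 1, with a median of 0.59, against 19.2% and 18.1% of all genes; under the deposited scaling 3 were higher and 0 lower. Gsta4, a glutathione transferase, had 3447, 3334 and 2791 in the knockout and 1143, 1025 and 781 in the wild type, a difference of 1.71 (SE 0.08, limma adjusted p = 5.54e-07). Gsr, glutathione reductase, had 1008, 1082 and 1160.5 in the knockout and 540.2, 533 and 529 in the wild type, a difference of 1.01 (SE 0.09, limma adjusted p = 4.15e-05). Their knockout arrays were all above the wild-type arrays. Of 27 genes induced by interferon, 12 passed as higher and 1 as lower, with a median of 0.32, and under the deposited scaling 6 and 0; Igtp, a GTPase of cell-autonomous immunity, differed by 1.83 and Bst2, tetherin, by 1.002.

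The matrix and adhesion lists held large differences in both directions. Eln, elastin, had 341, 369 and 333 in the knockout and 60.2, 55.4 and 50.4 in the wild type, a difference of 2.56 (SE 0.14, limma adjusted p = 1.67e-06). Tnc, tenascin C, had 177, 188 and 179 in the knockout and 957, 915 and 858 in the wild type, a difference of -2.30 (SE 0.10, limma adjusted p = 6.00e-07). Elastin was thus higher and tenascin lower on every knockout array, and in the list of elastic and matricellular genes 11 of 28 were higher and 11 lower. Col6a1 and Col6a2, chains of the microfibrillar collagen VI, differed by 1.08 and 1.38. Itgb8, an integrin chain that activates TGF-beta, had 507, 443 and 367 in the knockout and 46.2, 36.7 and 28.8 in the wild type, a difference of 3.41 (SE 0.14, limma adjusted p = 3.10e-07). Itga5, the fibronectin receptor chain, had 939, 839 and 768 in the knockout and 2359, 1809 and 1679.7 in the wild type, a difference of -1.18 (SE 0.08, limma adjusted p = 7.76e-06). Eng, a TGF-beta co-receptor of endothelium and activated smooth muscle, had 79.95, 90.9 and 74.5 in the knockout and 385, 351 and 348 in the wild type, a difference of -2.09 (SE 0.13, limma adjusted p = 4.38e-06). Itgb8 was higher on every knockout array, and Itga5 and Eng were lower. Serpinb2, an inhibitor of plasminogen activation, had 1059, 982 and 1232 in the knockout and 138, 193 and 289 in the wild type, a difference of 2.43 (SE 0.15, limma adjusted p = 3.76e-06). Gas1, a growth arrest gene and hedgehog co-receptor, had 376, 376 and 378 in the knockout and 39.3, 48.2 and 45.2 in the wild type, a difference of 2.97 (SE 0.14, limma adjusted p = 7.73e-07). Hoxa9, a homeobox gene of posterior body position, had 700.5, 975 and 779.98 in the knockout and 116, 230.2 and 212 in the wild type, a difference of 2.16 (SE 0.14, limma adjusted p = 5.08e-06). The groups did not overlap for any of these 3 genes. In the retinoid pathway the enzymes Rdh10 and Aldh1a1, which make retinaldehyde and retinoic acid, were higher (1.51 and 1.21) beside the much lower Aldh1a3.

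A second comparison asked whether a genotype difference had changed since the first 30 min of PDGF-BB. It used the 12 arrays at 0, 15, 30, 120, 180 and 240 min and tested the difference of the later window minus that of the earlier one. Among the earlier arrays the wild-type 30 min array stood apart, with a deposited trimmed mean of 81.0 against 187 to 252 on the other 5, 43.7% of probe sets above 16 as deposited against 58.5% to 62.9%, and a 3' to 5' ratio of 3.88 for Actb against 1.95 to 3.71. The Gapdh ratio was highest on the knockout 15 min array, at 5.65 against 3.19 to 4.49. Their part in the change was not tested beyond leaving out times in turn. Of 13913 genes tested, 592 (4.26%) changed, 290 (2.08%) upward in the knockout relative to the wild type and 302 (2.17%) downward. This count depends on the scaling and on the variance model. With limma 0 genes passed under the deposited scaling, where 146 had an unadjusted p under 0.05, and 2 passed without the intensity trend. With the 60 and 480 min arrays added 2 passed as well, but these include the wild-type pair set aside at the outset. At 60 and 480 min Fos had 6380 and 638 in the knockout and 212 and 7703 in the wild type. Egr2 had 5224 and 219 in the knockout and 640 and 6339 in the wild type. The part of this pair in the lost calls was not tested. Without the 15 and 180 min arrays 60 passed, without those at 30 and 240 min 254, and 110 without time as a block. Of the 592 genes, 541 (91.4%) had the larger absolute shift between windows in the wild type, against 67.0% of all genes tested. Among the 290 that moved upward the wild-type mean was lower in the later window for 276, and among the 302 that moved downward it was higher for 295. Of the 24 named genes with the largest differences at 120 to 240 min and both genotypes above the filter, 5 changed between the windows, namely Thbd, Rgs17, Adamts9, Acta1 and Lum. Differences at 0 to 30 min and shifts within a genotype are given as values and were not tested on their own.

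**Figure D3:**
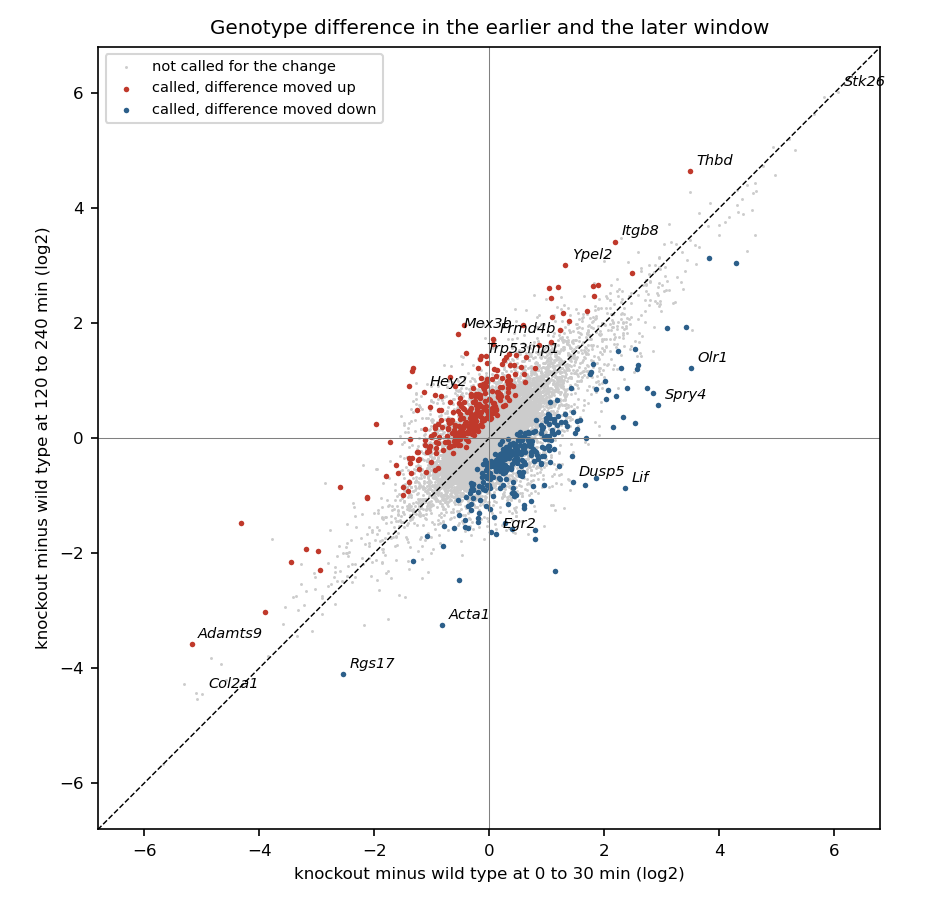
Each point is a gene, with its knockout minus wild-type difference (log2) at 0 to 30 min on the horizontal and at 120 to 240 min on the vertical axis; the dashed line marks equal differences, and coloured points were called for a change. Most genes lie along the line, Stk26 and Col2a1 near its ends, while Lif, Spry4 and Olr1 lie below it on the right.

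The smallest p-values for a downward change belonged to genes of varied kinds. Lif, a cytokine of the interleukin-6 family, had signals of 379, 428 and 684 in the knockout and 51.3, 81.7 and 167 in the wild type at 0, 15 and 30 min. At 120, 180 and 240 min it had 520.02, 579.7 and 614 in the knockout and 874, 1151 and 1147 in the wild type. The knockout was thus above the wild type before and below it after, and the difference changed by -3.24 (SE 0.19, limma adjusted p = 4.57e-06). Spry4 had 618, 452 and 678 in the knockout and 71.4, 57.6 and 86.4 in the wild type in the first window and 441, 553 and 611 in the knockout and 279, 394 and 404 in the wild type in the second. Its knockout level was similar in both windows, while the wild-type level was several times higher in the second; the change was -2.36 (SE 0.15, limma adjusted p = 7.68e-06). Olr1, a receptor for oxidized lipoprotein, had 241, 208 and 257 in the knockout and 17.4, 9.97 and 24.3 in the wild type and then 1434, 1219 and 829 in the knockout and 612, 547 and 341 in the wild type. Both genotypes were higher in the second window, the wild type by more on the log scale, with a change of -2.29 (SE 0.20, limma adjusted p = 8.75e-05). Hbegf had 922, 927 and 1815 in the knockout and 462, 507 and 636 in the wild type in the first window, at which the knockout was above the wild type without overlap, and similar levels in the second; the change was -1.31 (SE 0.16, limma adjusted p = 0.000737). Piezo1, a mechanically gated channel, changed by -1.27, SE 0.12, and Bcar1, the p130Cas adaptor of focal adhesions, by -1.07, SE 0.10.

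Other genes with a downward change separated later, some from a level start and some from a higher or lower one. Egr2, a zinc finger factor of the early response, had 21.3, 172 and 3685 in the knockout and 16.1, 181 and 3408 in the wild type at 0, 15 and 30 min, with similar values in the genotypes at each time. At 120, 180 and 240 min it had 806, 572 and 409.8 in the knockout and 2641, 1632 and 1435 in the wild type, without overlap, and the difference changed by -1.79 (SE 0.15, limma adjusted p = 8.75e-05). Fhl2, a LIM-domain cofactor of SRF, had 753, 775 and 796 in the knockout and 563, 499 and 684 in the wild type and later 1431, 1052 and 1011 in the knockout and 2695, 2193 and 1876 in the wild type. The knockout was above the wild type in the first window and below it in the second, a change of -1.37 (SE 0.13, limma adjusted p = 0.000131). Itga5 had 167, 149 and 171 in the knockout and 182, 166 and 156 in the wild type in the first window, with overlapping groups, against the non-overlapping later values given above; its difference changed by -1.13 (SE 0.15, limma adjusted p = 0.00102). Acta1 had 16.7, 26.3 and 19.8 in the knockout and 30.1, 43.2 and 47.9 in the wild type in the first window, and its wild-type mean was 3.001 higher in the second against 0.56 in the knockout, a change of -2.44 (SE 0.29, limma adjusted p = 0.00067). Dusp5 had 67.6, 191 and 809 in the knockout and 25.3, 33.9 and 484 in the wild type in the first window, higher in the knockout at each matched time, and was lower in the second, a change of -2.21 (SE 0.31, limma adjusted p = 0.00176). Fosl1, a Fos relative, had 65.7, 53.6 and 187 in the knockout and 21.97, 20.9 and 89.1 in the wild type and later 2333, 2037 and 2311 in the knockout and 3569, 3036 and 2825 in the wild type; the change was -1.70 (SE 0.16, limma adjusted p = 0.000131).

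**Figure D4:**
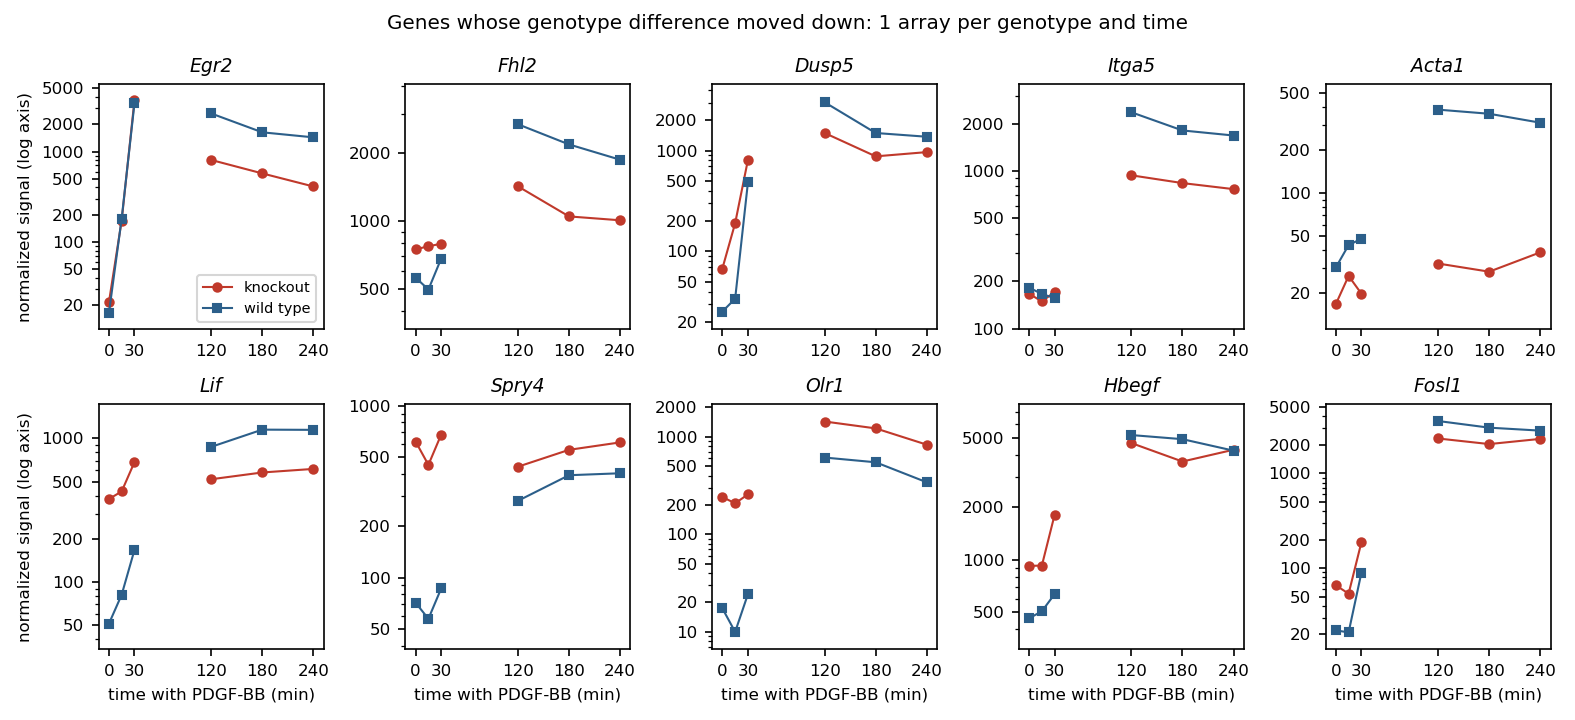
Normalized signal (log axis) of 10 genes against time with PDGF-BB in min, 1 array per point, red circles for the knockout and blue squares for the wild type; lines join the arrays of a window, and the 60 and 480 min arrays are not drawn. For Egr2 the curves coincide up to 30 min and part later, while Lif, Spry4, Olr1 and Hbegf begin higher in the knockout.

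For the immediate-early list as a whole, 11 of 31 members changed downward and 1 upward, with a median change of -0.48 against 0.02 for all genes; the median difference was 0.01 at 0 to 30 min and -0.49 at 120 to 240 min. Members beyond the rule, named after their values were seen, included Junb (-1.23), Arc (-1.68), Klf10 (-1.04) and Zfp36, which destabilizes cytokine mRNA (-0.72), with Klf4 (0.39) as the upward case. Against 2.17% downward and 2.08% upward among all genes, 4 of 17 MAP kinase feedback genes changed downward and 0 upward, among them Errfi1 (-0.95). Of cytokines and chemokines 5 of 23 changed downward and 0 upward, and of contractile genes 4 of 22 and 0. With time as a block left out, 0 immediate-early members passed, and without the 15 and 180 min arrays 6. Ptger4, a prostaglandin E receptor (-1.83, SE 0.23), Nppb (-1.20, SE 0.26), Ier5, an early-response gene (-0.66, SE 0.14), Grem1, an antagonist of BMP (-0.82, SE 0.18), Slc7a5, an amino acid transporter (-0.91, SE 0.14), Rdh10 (-0.74, SE 0.13), Pfn1 (-0.46, SE 0.09) and the metallothioneins Mt1 (-0.55, SE 0.10) and Mt2 (-1.07, SE 0.13) also changed downward. Cdkn1a, which did not differ later, was above the wild type at 0 to 30 min by 0.58 and changed by -0.59, SE 0.08.

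Upward changes came mainly from genes whose wild-type mean was lower in the later window than in the earlier one, as for 276 of 290. At 120 to 240 min 157 of the upward genes were higher in the knockout, 27 were lower and 105 did not pass. Frmd4b, a scaffold protein at cell junctions, had 2221, 2217 and 2289 in the knockout and 2301, 2048 and 2074 in the wild type at 0, 15 and 30 min. Later it had 1679, 2505 and 2219.9 in the knockout and 589, 823 and 535 in the wild type. The groups overlapped in the first window and were apart in the second, a change of 1.65 (SE 0.14, limma adjusted p = 8.75e-05). Mex3b, an RNA-binding protein, had 182, 180.3 and 219 in the knockout and 287, 293 and 275 in the wild type and later 314, 187 and 171 in the knockout and 115, 45.8 and 36.6 in the wild type. Its order was reversed between the windows, a change of 2.36 (SE 0.22, limma adjusted p = 0.000131). Trp53inp1, a stress protein of the p53 pathway and autophagy, had 1754, 1720.1 and 2115 in the knockout and 1968, 2097 and 2154 in the wild type, with overlap. Later it had 770.2, 781 and 1116 in the knockout and 352, 231 and 464 in the wild type, with none, a change of 1.53 (SE 0.15, limma adjusted p = 0.000215). Ypel2, a small zinc-binding protein, had 4112, 4181 and 3409.8 in the knockout and 1865, 1477 and 1348 in the wild type and later 2373, 2142 and 1642 in the knockout and 362, 251 and 167 in the wild type. Already higher in the knockout at first, it was several times higher later, a change of 1.68 (SE 0.15, limma adjusted p = 9.21e-05). Pdcd4, which inhibits translation initiation and is degraded on growth signalling (0.95, SE 0.11), Mn1, a transcriptional coactivator (1.42, SE 0.16), Ppp1r3c, which targets a phosphatase to glycogen (1.73, SE 0.18), and H2az1, a histone variant (0.77, SE 0.08), completed the leading upward genes. Ppp1r3c was lower later in both genotypes and was still lower in the knockout than in the wild type (-0.86, SE 0.16). The H2az1 mean was higher later in the knockout (0.48) and lower in the wild type (-0.30).

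Hbp1, a repressor of cell cycle genes, had 1603, 1647 and 1625 in the knockout and 1534, 1464 and 1453 in the wild type in the first window and 762, 662 and 593 in the knockout and 348, 264 and 274 in the wild type in the second. The genotypes were close at first and far apart later, a change of 1.05 (SE 0.12, limma adjusted p = 0.000472). Hbp1 and Trp53inp1 belong to a list of growth arrest genes and FoxO targets, of which 7 of 25 changed upward and 1 downward, with a median change of 0.29. Of the others that moved upward, named after their values were seen, Klf15 (1.74), Pik3ip1, an inhibitor of PI3 kinase (1.31), and Ccng2, an atypical cyclin of quiescent cells (1.06), had the larger changes, and Pdk4, which inhibits pyruvate dehydrogenase, was the downward case (-0.92). Without the 15 and 180 min arrays 3 members of the list passed. The PDGF receptors moved upward as well, Pdgfrb by 0.51 (SE 0.09, limma adjusted p = 0.00674) and Pdgfra by 1.14 (SE 0.28, limma adjusted p = 0.0379). Pdgfrb had 3668, 3341 and 3235 in the knockout and 4502, 4209 and 4599 in the wild type in the first window and 2992, 3698 and 3283 in the knockout and 2897, 3087 and 3110.2 in the wild type in the second. Its knockout level was below the wild type at every time of the first window and above it at every time of the second, where the groups overlapped.

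**Figure D5:**
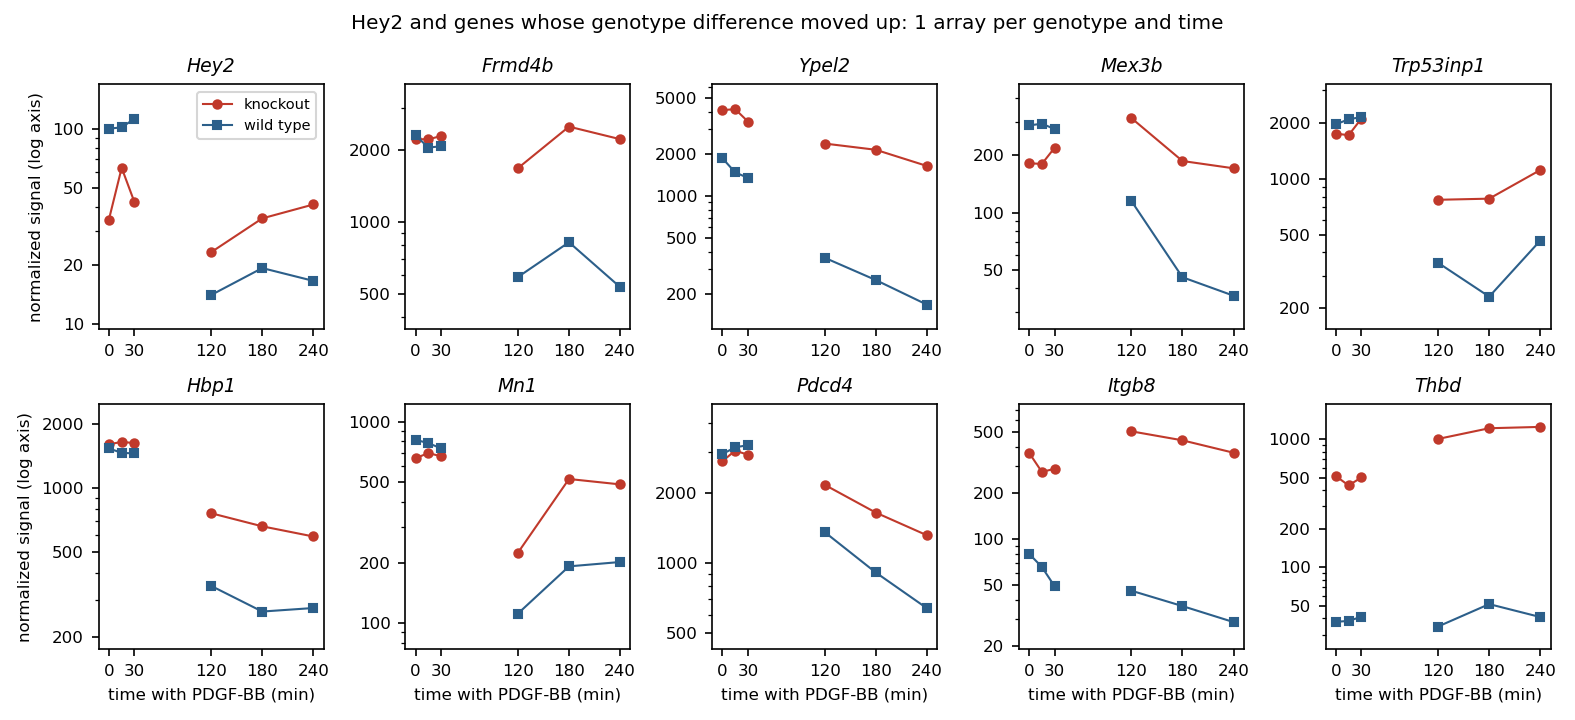
Normalized signal (log axis) of Hey2 and 9 genes whose genotype difference moved upward against time with PDGF-BB in min, drawn as 1 array per point, red circles for the knockout and blue squares for the wild type. At each of 120, 180 and 240 min the wild-type array lies below the knockout array of the same time in all 10 panels, though the groups overlap for Pdcd4. For Frmd4b, Trp53inp1, Hbp1 and Pdcd4 the genotypes were close together at 0 to 30 min.

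Among genes with the largest differences, 5 also changed between windows. Thbd, thrombomodulin, a surface anticoagulant of endothelium and mesothelium, had 517, 437 and 504 in the knockout and 37.7, 38.3 and 41.3 in the wild type at first and 1007, 1219.9 and 1249 in the knockout and 34.6, 51.8 and 41.05 in the wild type later. Every later knockout array was above every earlier one, while the wild type stayed dim, and the difference changed by 1.15 (SE 0.18, limma adjusted p = 0.00415). Adamts9, a secreted protease, had 51.9, 85.7 and 54.9 in the knockout and 2585, 2439 and 2249.7 in the wild type and later 42.8, 38.2 and 43.6 in the knockout and 889, 484 and 385 in the wild type. Its wild-type level was lower later, and the change was 1.59 (SE 0.28, limma adjusted p = 0.00674), toward a smaller difference. Rgs17, which shortens Gi-coupled receptor signalling, had 18.6, 12.8 and 7.06 in the knockout and 109, 81.9 and 89.1 in the wild type and later 13.6, 18.6 and 25.3 in the knockout and 181, 502 and 674 in the wild type, a change of -1.56 (SE 0.36, limma adjusted p = 0.0277) that widened the difference. Itgb8 (1.23, SE 0.20), Serpinb2 (1.36, SE 0.30), Lpl (0.64, SE 0.14) and Aldh1a1 (0.42, SE 0.09) changed upward too, which widened a difference in favour of the knockout. Tnc (0.65, SE 0.16) and Lum (0.88, SE 0.15) changed upward toward a smaller difference. They stayed lower in the knockout, Tnc at -2.95 and then -2.30 and Lum at -3.90 and then -3.02. For Lum, Lpl and Aldh1a1, as for Pdcd4, Hbp1, Klf4 and Slc7a5, the sign of the change turned when the 60 and 480 min arrays were added to the windows.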

How the data were processed

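For each probe set the authors deposited a linear signal intensity. The submitters' processing notes name MAS5, without version, and any scaling target is not stated. Of 45101 probe sets, 64 were controls, 34945 had 1 gene symbol in the platform annotation, 932 several and 9160 none, and the tests used only those with 1 symbol. By gene identifier, 34741 of those with 1 symbol matched RefSeq genes of GRCm38.p6, with 0 symbols changed. Groups were taken from the sample titles.

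Quantile normalization ran over all 16 arrays. An offset of 4.6, the 20th percentile of all deposited values, was added before log2. A probe set was tested when its normalized signal exceeded 16 on at least 3 arrays, and the probe set with the highest mean stood for its gene. Of 817 genes named or on a list, 422 had several tested probe sets, and for 4 of them (Col1a2, Ctnnb1, Smad7 and Vcam1) a further probe set passed with the other sign. Linear models were fitted with limma 3.58.1 (R 4.3.3), the prior variance following intensity, and p-values were adjusted by Benjamini-Hochberg over all genes, with a call at 0.05. The first had time as a factor plus genotype on 6 arrays, with 2 residual degrees of freedom. The second had time, genotype and genotype by window on 12 arrays, with 4.

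The titles paired the arrays by time. Across genes, deviations from the genotype mean correlated between same-time arrays at 0.41, 0.12 and 0.35 for 120, 180 and 240 min, and between different times at -0.35 to 0.04. The 3 deviations of a genotype cancel out for each gene, so positive same-time values force negative ones elsewhere. The different-time values are thus no separate support, and the 180 min value was little above the highest of them. These correlations describe 3 pairs and the genes are not independent.

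The genes described were chosen as Hey2, the 12 largest differences in each direction with both genotypes above the filter and 1 sign in all pairs, the 6 largest in each direction with a genotype at or under it, the 8 smallest p-values per direction for the change, up to 4 members of each of 37 lists with the smallest p, and 15 further genes of the Hey, PDGF and cell cycle pathways and contractile markers. The rule took 188 genes, of which 141 are described, and 23 more, chosen after their values were seen, are described beside them. Krt5 is given in addition and was not followed through the other settings. Members, lists and rules were chosen with earlier results of these data known. Promoters came from RefSeq windows. Fits were tested on simulated data with known changes, drawn with independent normal noise from the fitted models. The simulation held no array, scaling or normalization effects, so it does not bear on how the calls depend on the scaling. Other settings tried were the scaling, offset and filter, the probe set per gene, the variance model, the block, each time left out and the arrays sharing a spread.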

Additional observations from a re-analysis of the deposited data

Results flagged for a closer look

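The genotype difference of 54 genes named in the report differed between 0 to 30 min and 120 to 240 min by the limma test of the change itself, which is why they are listed here with the change on the log2 scale. It was upward in the knockout relative to the wild type for Mex3b (2.36), Hey2 (1.94), Klf15 (1.74), Ppp1r3c (1.73), Ypel2 (1.68), Frmd4b (1.65), Adamts9 (1.59), Trp53inp1 (1.53), Mn1 (1.42), Serpinb2 (1.36), Pik3ip1 (1.31), Itgb8 (1.23), Thbd (1.15), Pdgfra (1.14), Ccng2 (1.06), Hbp1 (1.05), Pdcd4 (0.95), Lum (0.88), H2az1 (0.77), Tnc (0.65), Lpl (0.64), Pdgfrb (0.51), Aldh1a1 (0.42) and Klf4 (0.39). It was downward for Lif (-3.24), Acta1 (-2.44), Spry4 (-2.36), Olr1 (-2.29), Dusp5 (-2.21), Ptger4 (-1.83), Egr2 (-1.79), Fosl1 (-1.70), Arc (-1.68), Rgs17 (-1.56), Fhl2 (-1.37), Hbegf (-1.31), Piezo1 (-1.27), Junb (-1.23), Nppb (-1.20), Itga5 (-1.13), Bcar1 (-1.07), Mt2 (-1.07), Klf10 (-1.04), Errfi1 (-0.95), Pdk4 (-0.92), Slc7a5 (-0.91), Grem1 (-0.82), Rdh10 (-0.74), Zfp36 (-0.72), Ier5 (-0.66), Srf (-0.66), Cdkn1a (-0.59), Mt1 (-0.55) and Pfn1 (-0.46). These genes were described because of this test, the genotype test at 120 to 240 min, their list or their values, so their number is no measure of how common such changes are; among all genes tested it was 592 of 13913. Under the deposited scaling none of the calls remained, 0 of 13947 genes passing by limma and 146 having an unadjusted p under 0.05. Beyond the brightness, the share of probe sets above 16 and the 3' to 5' ratios given above, groups of 3 arrays were not examined for outlying samples.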

How the results depend on the processing

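The number of genes called at 120 to 240 min was 4807. It fell outside 1.5 times of this with the scaling as deposited (805), without the intensity trend (2908), with no time block (2617), with the spread taken from all 16 arrays (1922) and with a 2-fold threshold (1136), and with each time left out in turn it ran from 2775 to 5103, the lowest without 180 min. The number changed between windows was 592, and 0 with the scaling as deposited, 2 without the trend, 2 with the 60 and 480 min arrays added, 110 with no block, 272 with the mean of a gene's probe sets and 378 with 0 and 15 min alone as the earlier window; with each time position left out it ran from 60 to 438, the lowest without 15 and 180 min. Under the other settings tried, both counts stayed within 1.5 times of these. Time was kept as a block since the titles pair the arrays by time. Without the block, 19 calls at 120 to 240 min and 35 for the change were lost among the genes described. With the scaling as deposited 61 calls at 120 to 240 min, beside that of Rac1, and all 54 for the change were lost.

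Hey2 passed at 120 to 240 min without the trend and with 12 arrays sharing a spread (0.80 in both, limma adjusted p = 0.0311 and 0.0192), and without each time it was 0.65 to 0.91; with a filter at a signal of 50 it was not tested. Its change between windows kept its direction but not its call at 1.83 with the scaling as deposited, 1.94 without the trend and 1.01 with the 60 and 480 min arrays added, and it was 1.70 to 2.23 without each time position. With the scaling as deposited the sign turned for Actb (0.20), Actg1 (0.22), Hes1 (0.11), Hbegf (0.18), Rac1 (0.043) and Cdkn1a (0.37), all below the median of 0.38 of all genes. It also turned for Pdgfrb with the mean of its probe sets (-0.021) and for Heyl without 240 min (-0.59). With the 60 and 480 min arrays added the change turned for Lum (-0.072), Lpl (-0.44), Klf4 (-0.21), Aldh1a1 (-0.12), Slc7a5 (0.78), Pdcd4 (-0.058) and Hbp1 (-0.10). The cause was not tested. A lone pair of arrays at each time, and signals near the filter for dim genes, limit what can be detected.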
